A study of Homo sapiens with 24 samples.

Results

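Gene expression in inhibitor-treated MV4-11 cells was compared between day 4 and day 2 of treatment, with 3 arrays on each day, or 6 of the 24 arrays of the series. The arrays were chosen by their titles alone, with no measured value used. MV4-11 is a human biphenotypic B and myelomonocytic leukaemia line that carries the MLL-AF4 rearrangement. The treated cultures were grown in IMDM with 10% fetal bovine serum and 3 uM EPZ004777, an inhibitor of the histone methyltransferase DOT1L. The vehicle cultures received 0.1% DMSO in the same medium, and all groups compared here are of this one line and carry the same fusion. Vehicle MV4-11 arrays of days 2, 4 and 6 and treated arrays of day 6, again 3 each, were used beside the comparison. The remaining arrays are of a second line, MOLM-13, and entered the filter on low values, the choice of each gene's probe set and the shared estimate of the spread, but no comparison. The comparison asks how far the response to the inhibitor went on from day 2 to day 4.

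In MLL-rearranged leukaemia the fusion protein recruits DOT1L to its target genes, where DOT1L methylates a lysine in the core of histone H3 and sustains transcription. Loss of this mark takes days, because it is diluted by cell division and histone turnover, and is followed by fading transcription of fusion targets and by signs of myeloid maturation. Mature monocytes and other antigen-presenting cells carry class II major histocompatibility (MHC) molecules, which present peptides to helper T cells and whose genes depend on the coactivator CIITA. Cells that mature also tend to leave the cell cycle, so that genes of DNA replication and mitosis fall together.

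Levels are given as log2 of the deposited intensity, and a change is the day 4 mean minus the day 2 mean on that scale, with its standard error (SE). Every array shared the same lowest value, 2.19, at which 35.8% to 36.4% of the probe sets of the 6 arrays lay, so a change from or to that level is a change against a floor set by the background adjustment. Of 10 tested markers of this line, 9 had means of at least log2 5.72 in the treated groups and in day 2 vehicle, among them PTPRC, LYZ, FLT3 and CD4, while ITGAX was under 4 in all 6 arrays. Arrays of one group correlated at 0.9989 to 0.9990 on day 2 and 0.9985 to 0.9987 on day 4. The signal at the 3′ end of control transcripts over that at the 5′ end, a sign of RNA quality, was 0.53 to 0.57 log2 units on day 2, 0.59 to 0.67 on day 4 and 0.83 to 1.91 on treated day 6. The day 4 vehicle arrays stood apart from those of days 2 and 6, so differences between the treated and vehicle changes were tested against the vehicle change to day 4 and again to day 6, and a vehicle change given for a single gene is to day 4 unless day 6 is named. The labels call the samples biological replicates but do not say how they were made, so p-values measure the spread between these samples, which may be technical. In cultures measured whole, fewer cells of a kind and less RNA per cell cannot be told apart.

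Between day 2 and day 4 of treatment, 4241 of the 10971 genes tested changed, which is 38.7% (limma, Benjamini-Hochberg adjusted p under 0.05). Of these, 2044 rose (18.6%) and 2197 fell (20.0%). These shares are the background for the treated counts of every gene list below. Counts of a list are over its tested members only, and of 773 listed genes 589 were tested. The change was not symmetric in size, since 220 genes rose at least 2-fold (2.01%) and 54 fell at least 2-fold (0.492%). The arrays of the days did not overlap for 6350 genes, or 57.9%. Among the 220 rises, 46 had a mean under log2 4 on one of the days and 95 had both means at 6 or above. For the 54 falls these counts were 12 and 27. Adding 16 to each intensity before the log, which compresses low levels, left 127 rises and 24 falls of that size.

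Vehicle cultures also changed over the same days, with 2958 genes called from day 2 to day 4 (27.0%), 1415 higher (12.9%) and 1543 lower (14.1%). Without array 3 of vehicle day 4 this count was 1871. From day 2 to day 6, 123 genes of the vehicle cultures were called (1.12%), with 1617 at an unadjusted p under 0.05. This count was unstable, at 28 without array 1 of vehicle day 6, 366 without array 3 of that day, 45 to 79 without any 1 array of vehicle day 2, 43 without array 2 of day 6 and 4 in a fit of its own 6 arrays. Of the 2044 genes that rose under treatment, 610 also rose in vehicle by day 4, which is 29.8% of the treated rises and 43.1% of the vehicle rises. Of the 2197 that fell, 1005 also fell in vehicle, or 45.7% of the treated falls and 65.1% of the vehicle falls. The treated change differed from the vehicle change for 1644 genes (15.0%), higher for 792 (7.22%) and lower for 852 (7.77%). Set against the vehicle change to day 6 it differed for 2337 genes (21.3%), higher for 1106 (10.1%) and lower for 1231 (11.2%). Both tests found 564 of the treated rises higher (27.6%) and 422 of the treated falls lower (19.2%). These 2 tests share the treated arrays and the day 2 vehicle arrays and are not independent.

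**Figure D1:**
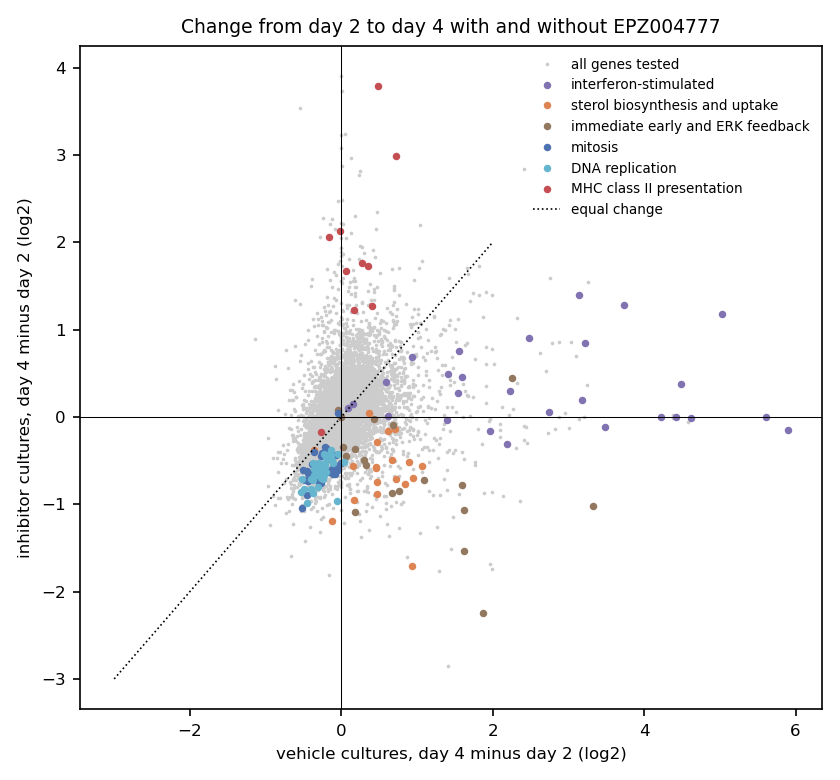
Change from day 2 to day 4 of each tested gene in treated cultures (vertical axis, log2) against its change in vehicle cultures (horizontal axis, log2), with named groups in colour and the dotted line marking equal change. All 10 class II MHC genes lie above the line, 9 of them at 1.22 to 3.79 in treated cultures, with vehicle changes of -0.16 to 0.72. HLA-DOB lies close to the line, at -0.17 in treated and -0.27 in vehicle cultures. Sterol and immediate early genes mostly lie below the line, most of them with values under 0 in treated and above 0 in vehicle cultures.

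Class II antigen presentation had the largest median rise of the gene lists under treatment. Of its 12 listed genes, 10 were tested, and 9 of the 10 rose while none fell, beside 18.6% of all genes rising. The list's median change was 1.75, against -0.003 over all genes. Its median level was 8.42, 8.24 and 8.39 in the day 2 arrays and 10.48, 10.58 and 10.62 in the day 4 arrays, and every vehicle array of the 3 days lay between 6.48 and 7.23. The day 2 treated arrays were thus already above all vehicle arrays, and the day 4 arrays were higher again with no overlap. In vehicle, 1 of the 10 rose by day 4, with a list median of 0.22. In every list for which no member is said to have risen, or none to have fallen, under treatment, 0 did so at an unadjusted p under 0.05 (limma), unless stated. The difference between the treated and vehicle changes was called for 8 of the 10, all higher, also with the vehicle change to day 6.

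The class II α and β chains that present peptide moved together. HLA-DPA1, the α chain of HLA-DP (Entrez gene 3113), had levels of 9.28, 9.37 and 9.31 on day 2 and 12.41, 12.22 and 12.30 on day 4. All day 4 arrays were close to 3 log2 units above all day 2 arrays, and the spread within a day was small beside this. The change was 2.99 ± 0.10, or 7.95-fold (adjusted p = 7.66e-14), against 0.72 in vehicle, and the difference of 2.27 was called (adjusted p = 2.41e-09). Its partner HLA-DPB1 (Entrez gene 3115) had levels of 6.84, 6.69 and 6.05 on day 2 and 10.20, 10.39 and 10.35 on day 4. The third day 2 array was the lowest, and the days did not overlap. HLA-DPB1 rose by 3.79 ± 0.24, which is 13.8-fold (adjusted p = 9.44e-10), the largest change in the list. HLA-DRA, the shared α chain of HLA-DR, had levels of 10.60, 10.72 and 10.65 on day 2 and 12.78, 12.71 and 12.85 on day 4. The arrays of each day lay within a narrow band and did not overlap. It rose by 2.13 ± 0.18 (4.37-fold, adjusted p = 4.95e-08), while its vehicle change was -0.01. The HLA-DR β chain gene HLA-DRB1 rose by 1.67 ± 0.25 and HLA-DQB1, a β chain of HLA-DQ, by 2.06 ± 0.18. HLA genes are alike in sequence, and how much signal a probe set takes from a related gene was not tested.

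The genes that load and guard the peptide groove rose less evenly. HLA-DMA, which with HLA-DMB exchanges peptides in endosomes, had levels of 9.13, 9.14 and 8.96 on day 2 and 10.77, 10.77 and 10.88 on day 4, with no overlap. It rose by 1.73 ± 0.14 (adjusted p = 3.28e-08). HLA-DMB had levels of 5.45, 5.65 and 5.18 on day 2 and 6.35, 6.28 and 7.48 on day 4. The third day 4 array was more than 1 log2 unit above the other two, and the days still did not overlap. HLA-DMB rose by 1.27 ± 0.32 (adjusted p = 0.004), and its difference from the vehicle change was not called (0.86, adjusted p = 0.243). HLA-DOB, the β chain of HLA-DO, which restrains HLA-DM and is known mainly from B cells, was the tested member that did not pass, with a change of -0.17 (adjusted p = 0.574). CD74, the invariant chain that blocks the groove until the endosome is reached, had levels of 12.29, 12.27 and 12.19 on day 2 and 13.47, 13.42 and 13.53 on day 4. It was already among the high genes on day 2 and rose by 1.22 ± 0.09 with no overlap (adjusted p = 3.53e-09).

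CIITA, the coactivator on which class II transcription depends, rose with its targets (Entrez gene 4261). Its levels were 6.54, 6.60 and 6.35 on day 2 and 8.22, 8.37 and 8.19 on day 4. Each day 4 array was above every day 2 array. The change was 1.77 ± 0.18, or 3.4-fold (adjusted p = 5.66e-07), and exceeded the vehicle change by 1.49 (adjusted p = 0.000567). The day 2 vehicle mean was 4.85, so CIITA was already higher under treatment on day 2.

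Class II promoters are known for an X box and a Y box, bound by RFX and NF-Y, onto which CIITA is recruited, and these promoters are shown because their genes moved together. Promoter sequences of RefSeq genes on GRCh38.p14 were searched on both strands over the 300 bases held for each gene around its start. The Y box letters GATTGG, which contain the CCAAT box read on the other strand, were in 7 of the 10 class II promoters held in the table (70%) and in 15.7% of all 27305 promoters. The 7 were those of HLA-DRB1, HLA-DPB1, HLA-DQB1, HLA-DMA, HLA-DMB, HLA-DOA and HLA-DOB. Among these, HLA-DOB did not rise and HLA-DOA was not tested, while HLA-DPA1 rose without a Y box match. The X box letters CCTNGNNAC were in 2 of the 10, HLA-DPA1 and HLA-DMB, and in 15.3% of all promoters. The bases just before the start are printed for HLA-DPB1 (chr6:33075870-33075989, plus strand) and, on the minus strand, for HLA-DQB1 (chr6:32666658-32666777), HLA-DMA (chr6:32953098-32953217) and HLA-DMB (chr6:32941029-32941148), with the matched letters in capitals.
HLA-DPB1: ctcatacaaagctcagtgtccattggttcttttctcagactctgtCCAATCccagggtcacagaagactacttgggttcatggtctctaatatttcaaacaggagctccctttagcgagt
HLA-DQB1: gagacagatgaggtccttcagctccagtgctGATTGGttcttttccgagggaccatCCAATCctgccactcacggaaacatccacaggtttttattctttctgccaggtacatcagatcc
HLA-DMA: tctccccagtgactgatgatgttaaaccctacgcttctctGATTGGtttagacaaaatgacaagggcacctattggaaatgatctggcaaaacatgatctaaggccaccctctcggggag
HLA-DMB: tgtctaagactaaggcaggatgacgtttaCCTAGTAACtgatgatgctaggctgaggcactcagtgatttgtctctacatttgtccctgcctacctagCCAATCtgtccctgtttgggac
HLA-DQB1 shows the Y box letters in both orientations. In HLA-DMB the X box match lies upstream of the Y box match, at positions -91 to -83 and -22 to -17 from the start. Whether this spacing is that of a working pair was not tested. A match of letters is a description of the sequence and does not show that a factor was bound.

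Class I presentation, which displays peptides of the cell's own proteins, moved much less. Of 14 tested genes 7 rose and 1 fell, beside 18.6% and 20.0% of all genes, with a median of 0.22. HLA-F rose by 0.46 ± 0.09 and HLA-C by 0.34 ± 0.07, and NLRC5, the class I counterpart of CIITA, rose by 0.26 ± 0.07. The difference from the vehicle change was called for 0 of the 14 with day 4, with 1 at an unadjusted p under 0.05 (limma), and for 1 with day 6.

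Outside antigen presentation, the largest rises took genes up from the floor. GASK1B, a Golgi-associated kinase-like gene, had levels of 3.38, 2.42 and 2.66 on day 2 and 6.89, 6.47 and 6.83 on day 4. It was near the floor on day 2 and a clear signal on day 4. The rise of 3.91 ± 0.15 depends on the floor and is a change on this scale only. ZNF366, a zinc finger factor known from dendritic cells, was at 2.19 in all 3 day 2 arrays and at 6.57, 5.75 and 5.43 on day 4. TSPOAP1, a binding partner of a mitochondrial membrane protein, had levels of 4.19, 4.03 and 4.27 on day 2 and 7.72, 7.71 and 7.67 on day 4. It stood off the floor on both days and rose by 3.54 ± 0.21 (11.6-fold), while its vehicle change was -0.55. SLC40A1, the iron exporter ferroportin, had levels of 2.35, 2.24 and 2.19 on day 2 and 5.75, 5.24 and 5.48 on day 4. ATP6V1C2, a subunit of the proton pump that acidifies endosomes and lysosomes, rose by 3.24 ± 0.16. GAPT, GPAT3, an acyltransferase of triglyceride synthesis, and CRISPLD2 rose by 3.07 ± 0.16, 2.88 ± 0.13 and 2.96 ± 0.18. In the vehicle arrays of day 2 the means of these 8 genes lay between 2.19 and 3.10.

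Among genes measured clearly on both days, F13A1, the A subunit of coagulation factor XIII and a gene of monocytes and macrophages, had levels of 7.97, 7.99 and 7.80 on day 2 and 10.36, 10.41 and 10.40 on day 4. The days were more than 2 log2 units apart. It rose by 2.47 ± 0.19 (5.54-fold, adjusted p = 1.09e-08) with a vehicle change of -0.04. IGF1, a growth factor that macrophages also make, had levels of 10.04, 10.03 and 9.95 on day 2 and 12.08, 12.03 and 12.06 on day 4, with no overlap. It rose by 2.05 ± 0.10 (adjusted p = 4.57e-11). ROBO1, which binds the SLIT guidance factors, rose by 2.30 ± 0.22, and CSGALNACT1, an enzyme that starts chondroitin sulfate chains, by 1.96 ± 0.12. SIGLEC10, an inhibitory sialic acid receptor, had levels of 5.68, 5.70 and 5.51 on day 2 and 7.49, 7.88 and 8.0 on day 4 and rose by 2.16 ± 0.14 (adjusted p = 9e-10). Of the 36 genes with the largest changes in either direction, 11 had at least 1 other probe set at log2 6 or above on either day. These 16 other probe sets all had changes of the same sign, without a test, though not all of like size. The other 25 genes had none at that level.

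**Figure D2:**
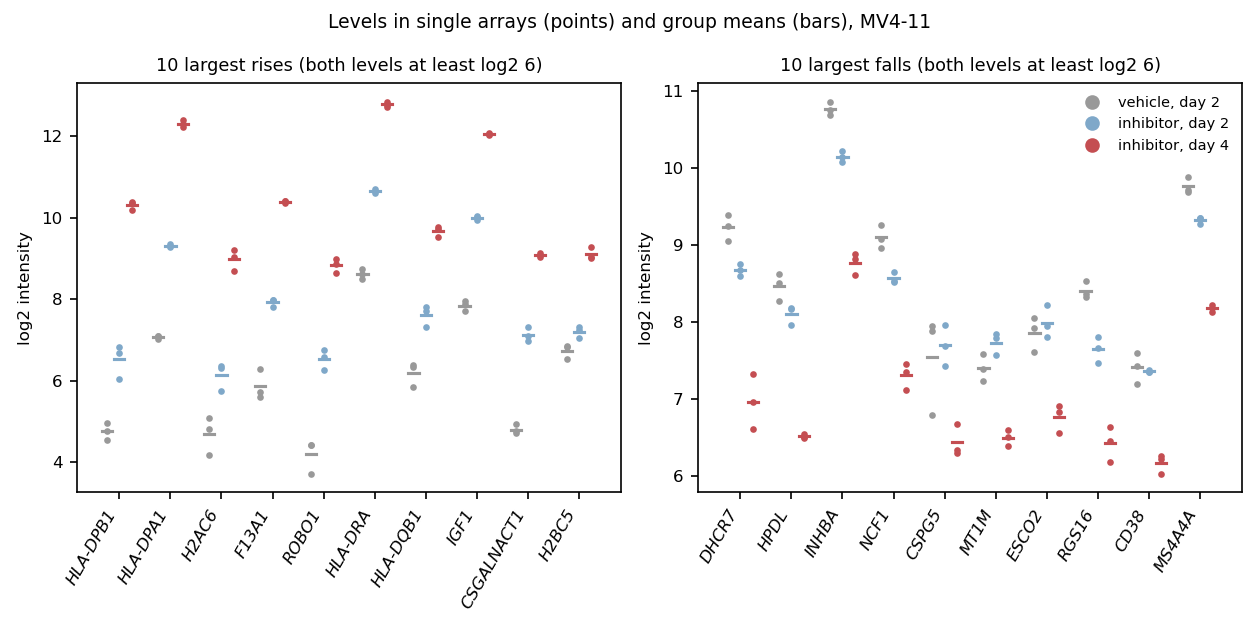
Log2 intensity (vertical axis) of the 10 largest rises (left) and 10 largest falls (right) with both means at least log2 6, as points for the 3 arrays and bars for the mean of day 2 vehicle (grey), day 2 treated (blue) and day 4 treated (red). Every red group is apart from its blue group, and in the left panel each blue mean lies above the grey mean, whereas CD38 and MT1M in the right panel show blue and grey points near each other.

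Monocyte and macrophage genes rose in part. Of 32 listed genes 23 were tested, of which 12 rose and 2 fell, beside 18.6% and 20.0% of all genes. The median of 0.23 equalled the vehicle median of 0.23. CSF1R, the receptor for macrophage colony-stimulating factor, had levels of 9.76, 9.60 and 9.53 on day 2 and 10.57, 10.59 and 10.59 on day 4. The day 4 arrays were nearly equal and all above day 2. It rose by 0.95 ± 0.09 (adjusted p = 2.47e-07), by 0.45 more than in vehicle (adjusted p = 0.0236). CD36, a scavenger receptor for oxidised lipids, rose by 1.10 ± 0.15 and MPEG1, a pore-forming protein of macrophages, by 0.71 ± 0.08, and both exceeded the vehicle change. ITGAM, the integrin chain CD11b, rose by 1.14 ± 0.29, but its rise in vehicle was 2.32, and the difference of -1.19 was not called (adjusted p = 0.0576). CD14, the monocyte lipopolysaccharide coreceptor, lay at the floor on both days, at 2.19 to 2.20. NCF1, a cytosolic subunit of the phagocyte oxidase, went the other way, with levels of 8.65, 8.52 and 8.52 on day 2 and 7.11, 7.45 and 7.35 on day 4. It fell by 1.26 (SE 0.18, adjusted p = 1.95e-05), while it rose by 1.27 in vehicle. NCF1 has near-identical pseudogene copies, so its signal may be shared with them. The number of rises ranged from 9 to 16 when settings or single arrays were changed.

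Granule and neutrophil genes rose modestly from high or middling levels. Of 14 listed primary granule genes 11 were tested, of which 4 rose and none fell, with a median of 0.21. CTSG, the granule protease cathepsin G, had levels of 13.09, 13.05 and 13.01 on day 2 and 13.97, 14.06 and 14.09 on day 4, with no overlap. It rose by 0.99 ± 0.07 (adjusted p = 1.09e-08) and fell in vehicle by day 4 (-0.45), and the difference was called with either vehicle day. ELANE, neutrophil elastase, rose by 0.34 ± 0.05 and AZU1, azurocidin, by 0.32 ± 0.07. MPO, myeloperoxidase, rose by 0.90 ± 0.20, without a called difference from vehicle. Of 18 listed neutrophil maturation genes only 8 were tested. Of these 8, 5 rose and 1 fell, beside 18.6% and 20.0% of all genes, with a median of 0.38. S100A8, a calcium-binding alarmin subunit, had levels of 8.10, 8.05 and 8.20 on day 2 and 9.29, 9.38 and 9.56 on day 4, and the days did not overlap. It rose by 1.29 ± 0.11 (adjusted p = 7.26e-08). CSF3R, the granulocyte colony-stimulating factor receptor, rose by 0.90 ± 0.07 and CXCR2, a neutrophil chemokine receptor, by 0.50 ± 0.09, while MNDA, a nuclear antigen of myeloid cells, fell by 0.38.

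Lysosomal genes rose in 10 of 21 cases and none fell, with a median of 0.16. PSAP, the precursor of the saposins that help degrade sphingolipids, had levels of 11.33, 11.32 and 11.42 on day 2 and 12.46, 12.44 and 12.46 on day 4. The day 4 arrays were nearly equal and all lay above day 2. It rose by 1.10 ± 0.07 (adjusted p = 1.13e-09). GM2A, an activator of ganglioside breakdown, ASAH1, acid ceramidase, and MAN2B1, a mannosidase, rose by 0.69 ± 0.07, 0.62 ± 0.06 and 0.47 ± 0.06, and the GM2A call was lost with averaged probe sets. In vehicle 12 of the 21 also rose by day 4, and 0 by day 6, with 2 higher at an unadjusted p under 0.05 (limma). The treated change exceeded the vehicle change for 3 of the 21 with day 4 and for 7 with day 6, and it was below the vehicle change for 2 with day 4.

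Of 22 adhesion genes 9 rose and 4 fell, beside 18.6% and 20.0% of all genes. ICAM3 and SELPLG, an adhesion molecule of leukocytes and the ligand of P-selectin, rose by 0.71 ± 0.07 and 0.62 ± 0.07. Of 12 histone genes 6 rose and 3 fell, and the falls numbered 3 to 6 over the alternatives run. H2BC5 had levels of 7.24, 7.06 and 7.31 on day 2 and 9.28, 9.03 and 9.02 on day 4, with no overlap, and rose by 1.91 ± 0.14 (limma adjusted p = 5e-09). A further H2BC5 probe set had treated means of 7.42 on day 2 and 7.91 on day 4, a change of only 0.50, without a test. H2AC6 rose by 2.84 ± 0.36, yet by 2.41 in vehicle to day 4 and -0.01 to day 6, so its difference was called only with day 6. H2AX, the replication-linked variant that marks broken DNA when phosphorylated, fell by 0.58. Histone genes form a family of near-identical copies, and probe sets may not separate them.

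Transcription factors of the myeloid lineage changed little apart from ZNF366. Of 18 tested 6 rose and 1 fell, with a median of 0.05. This count of 6 was 3 without array 2 of treated day 2 or day 4, and the 1 fall was 0 without array 1 or 2 of day 2 or array 1 or 3 of day 4. ID2, an inhibitor of basic helix-loop-helix factors, rose by 0.69 ± 0.08, with a similar 0.78 in vehicle, and TFEC, a factor of macrophages, rose by 0.63 ± 0.08, by 0.56 more than in vehicle. CEBPA, which directs granulocyte and monocyte fate, had levels of 12.79, 12.61 and 12.77 on day 2 and 12.91, 12.96 and 12.94 on day 4 and rose by 0.21 ± 0.07 (adjusted p = 0.03). That call was lost without array 2 of either day or array 3 of day 4, and with a replicate block in the 6 arrays alone. CEBPB, the factor of emergency granulopoiesis, had a change of 0.02 ± 0.10 and SPI1, the factor PU.1, of -0.27 ± 0.14, and neither passed.

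Of 15 listed progenitor genes 6 were tested, of which 1 rose and 2 fell, beside 18.6% and 20.0% of all genes, with a median of -0.14. GATA2, a stem cell factor, had a change of -0.76 ± 0.30 and LMO2, a bridging protein of stem cell factors, of 0.01 ± 0.06, and these and MYB did not pass. KIT, the stem cell factor receptor, had levels of 9.21, 9.09 and 9.37 on day 2 and 10.32, 10.26 and 10.38 on day 4. Every day 4 array was above every day 2 array. It rose by 1.10 ± 0.10 (adjusted p = 7.26e-08), while its vehicle change was -0.25 and not called. CD38, an ectoenzyme of lymphoid and myeloid progenitors, had levels of 7.35, 7.38 and 7.35 on day 2 and 6.26, 6.22 and 6.03 on day 4, with no overlap. It fell by 1.19 (SE 0.12, adjusted p = 5.1e-07). FLT3, the receptor kinase that MV4-11 carries in mutated form, fell by 0.30 (SE 0.09, adjusted p = 0.0116) from a level near 11.9.

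Genes of DNA replication fell almost without exception. Of 39 tested, 38 fell and none rose, beside 20.0% of all genes falling, and the median change was -0.60. The arrays did not overlap for any of the 39. In vehicle 23 of the 39 also fell by day 4, with a median of -0.29, and none by day 6, with a median of -0.04 and 6 at an unadjusted p under 0.05 (limma). The treated fall exceeded the vehicle change for 16 genes with day 4 and 30 with day 6. GINS4 was the member that did not pass, with a change of -0.80 ± 0.61 (limma adjusted p = 0.322), though its arrays did not overlap either. Over the alternatives run, 37 to 39 of the list fell.

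CDC6, which loads the replicative helicase at origins, had levels of 10.34, 10.39 and 10.38 on day 2 and 9.38, 9.37 and 9.46 on day 4. The arrays of a day lay close together and the days were well apart. It fell by 0.96 (SE 0.08, 1.95-fold, adjusted p = 2.77e-08), against -0.06 in vehicle. CDC45, part of the active helicase, had levels of 9.68, 9.65 and 9.71 on day 2 and 8.58, 8.71 and 8.81 on day 4. It fell by 0.98 with no overlap, of which -0.46 was seen in vehicle. GINS1 and GINS2, helicase cofactors, fell by 0.70 and 0.87 (SE 0.06 and 0.07). All 4 of these genes fell further than in vehicle under either vehicle day.

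Mitotic genes behaved alike, with 35 of 36 lower, none higher and a median of -0.61. The exception was BUB3, a checkpoint protein, with a change of 0.04 ± 0.07 (adjusted p = 0.691). In vehicle 23 of the 36 fell by day 4 and 1 by day 6, and the treated fall exceeded these changes for 16 and 31 genes. PLK1, the kinase that drives entry into and passage through mitosis, had levels of 9.04, 9.0 and 9.13 on day 2 and 7.92, 8.0 and 8.13 on day 4. The days did not overlap. It fell by 1.04 (SE 0.09, 2.06-fold, adjusted p = 6.98e-08), against -0.52 in vehicle. MKI67, the proliferation antigen Ki-67, had levels of 11.20, 11.27 and 11.27 on day 2 and 10.51, 10.64 and 10.60 on day 4, again with no overlap. It fell by 0.66 (SE 0.07, adjusted p = 8.35e-07), and its vehicle change of -0.12 was not called. KIF2C, a kinesin that takes microtubules apart, BUB1B, a checkpoint kinase-like protein, and CDC20, an activator of the anaphase-promoting complex, fell by 0.75, 0.67 and 0.73.

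Many mitotic genes are repressed outside mitosis through a cell cycle homology region close to their start. Its core letters TTTGAA, on either strand, were in 21 of the 29 mitotic promoters held in the table (72.4%), in 1 of 35 DNA replication promoters (2.86%) and in 15.4% of all promoters. The median changes of these lists were -0.61 and -0.60. The bases before the start are shown for PLK1 (chr16:23678809-23678888, plus strand), BUB1B (chr15:40160989-40161068, plus strand), CDC20 (chr1:43358901-43358980, plus strand) and MKI67 (chr10:128126424-128126503, minus strand), with TTTGAA or its complement in capitals.
PLK1: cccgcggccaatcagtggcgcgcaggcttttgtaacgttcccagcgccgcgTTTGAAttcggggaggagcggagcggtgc
BUB1B: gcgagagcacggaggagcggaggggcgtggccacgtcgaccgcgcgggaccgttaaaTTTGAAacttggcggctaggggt
CDC20: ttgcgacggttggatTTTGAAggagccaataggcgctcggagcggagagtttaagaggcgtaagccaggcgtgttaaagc
MKI67: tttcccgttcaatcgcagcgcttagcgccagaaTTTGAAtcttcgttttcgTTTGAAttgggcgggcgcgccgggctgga
In PLK1 and BUB1B a single match lies close to the start, CDC20 has it further upstream, and MKI67 has a pair.

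Of 16 regulators of the G1 phase 2 rose and 6 fell, beside 18.6% and 20.0% of all genes. CDK2, the kinase that drives entry into S phase, had levels of 10.44, 10.40 and 10.44 on day 2 and 9.53, 9.49 and 9.67 on day 4. It fell by 0.86 with no overlap (SE 0.07, adjusted p = 6.04e-08). The inhibitor CDKN1C, or p57, had levels of 5.40, 5.58 and 5.41 on day 2 and 7.73, 7.77 and 7.47 on day 4, and the days were about 2 log2 units apart. It rose by 2.19 ± 0.24 (adjusted p = 1.08e-06), more than in vehicle by 1.16 (adjusted p = 0.0268). The inhibitor CDKN1A, or p21, moved the opposite way, with levels of 10.29, 10.14 and 10.26 on day 2 and 9.36, 9.45 and 9.54 on day 4. It fell by 0.78 (SE 0.10, adjusted p = 4.05e-06), while it rose by 0.60 in vehicle. CCND3, a D-type cyclin, fell by 0.41, and the call was lost when a gene's probe sets were averaged. CDK6, its kinase partner, had a change of -0.06 ± 0.06 (adjusted p = 0.479).

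Genes of growth outside the cell cycle fell less. Of 22 genes of ribosome biogenesis and MYC output 10 fell and 1 rose, with a median of -0.12, and in vehicle 11 fell and 2 rose. The 10 were 6 without array 2 of treated day 2. MRTO4, WDR12, BYSL and NOP16, ribosome assembly factors, fell by 0.52, 0.32, 0.39 and 0.47, and their vehicle changes were -0.46, -0.30, -0.44 and -0.49. The WDR12 call was lost with averaged probe sets. MYC itself had levels of 13.45, 13.54 and 13.51 on day 2 and 13.58, 13.61 and 13.55 on day 4, which did not overlap but whose means differed by only 0.08 ± 0.12 (adjusted p = 0.639). Of 21 respiratory chain genes 10 fell and 2 rose, and the 10 were 5 when the arrays were quantile normalized again. The 2 rises were 1 when any 1 array other than array 2 of treated day 2 was left out. NDUFA9 and NDUFS1 of complex I fell by 0.54 and 0.46, and NDUFB5 of the same complex rose by 0.31 ± 0.06. Of 17 aminoacyl-tRNA synthetases 7 fell, or 4 without array 1 of treated day 2, with VARS1 at -0.43 ± 0.08. In the S-adenosylmethionine cycle, which supplies the methyl group that DOT1L uses, 4 of 13 genes fell, CBS by 0.66, and 2 fell without array 1 of day 2 or array 3 of day 4.

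Sterol synthesis moved in opposite directions in treated and vehicle cultures. Of 19 tested genes 15 fell and none rose under treatment, with a median of -0.57, while in vehicle 15 rose and 1 fell by day 4, with a median of 0.48. In vehicle 0 were called by day 6, with 9 higher at an unadjusted p under 0.05 (limma) and a median of 0.35. The treated change was lower than the vehicle change for 17 of the 19 with day 4 and for 15 with day 6, and for 14 with both. DHCR7, the last enzyme of cholesterol synthesis, had levels of 8.74, 8.59 and 8.68 on day 2 and 7.32, 6.61 and 6.96 on day 4. The second day 4 array was the lowest, and all day 4 arrays lay below day 2. It fell by 1.71 (SE 0.14, 3.27-fold, adjusted p = 2.77e-08) and rose by 0.93 in vehicle. EBP, a sterol isomerase, had levels of 11.55, 11.58 and 11.47 on day 2 and 10.61, 10.54 and 10.59 on day 4. It fell by 0.96 with no overlap, and its vehicle change of 0.16 was not called. FDPS, which makes farnesyl diphosphate, and ACAT2, which makes the first intermediate of the pathway, fell by 0.57 and 0.75. The low-density lipoprotein receptor was not analysed here. The letters TCACNCCAC of a sterol regulatory element were in 1 of 18 promoters of the list (5.56%), that of SREBF2, and in 1.15% of all promoters.

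Fatty acid synthesis fell with it, in 6 of 9 genes and none higher, with a median of -0.61. FASN, fatty acid synthase, had levels of 10.91, 10.63 and 10.86 on day 2 and 9.75, 9.85 and 9.81 on day 4. The days were apart by more than the spread of either. It fell by 1.00 (SE 0.13, adjusted p = 5.39e-06). FADS2, a desaturase of polyunsaturated chains, ACACA, acetyl-CoA carboxylase, and SCD, stearoyl-CoA desaturase, fell by 1.08, 0.65 and 0.68. All 4 were lower than the vehicle change with either day. Among 11 genes of lipid handling and the LXR receptors 1 rose, CD36, and 3 fell, FABP5, APOC1 and LPCAT3, by 0.43, 0.41 and 0.54. The LPCAT3 call was lost without array 1 of day 2 or array 2 of day 4.

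Immediate early genes and feedback regulators of ERK signalling fell, 10 of 21 and none higher, with a median of -0.50. In vehicle 11 of the 21 rose by day 4 and 1 by day 6. The treated change was lower than the vehicle change for 14 with day 4, 11 with day 6 and 11 with both. EGR1, a transcription factor switched on within minutes of growth signals (Entrez gene 1958), had levels of 8.13, 8.27 and 8.0 on day 2 and 6.93, 5.48 and 5.25 on day 4. The first day 4 array was well above the other two, yet below every day 2 array. EGR1 fell by 2.25 (SE 0.46, 4.75-fold, adjusted p = 0.000643) and rose by 1.87 in vehicle. EGR3, a relative, had levels of 4.61, 4.04 and 4.27 on day 2 and 2.71, 2.92 and 2.67 on day 4, all below log2 5. IER3 and ETV5, an early response gene and an ETS factor that reports ERK activity, fell by 1.07 and 0.84. CCND1, another target, was under log2 4 on both days, at 3.28, 3.58 and 3.32 and then 2.19, 2.19 and 2.52.

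Serum response elements drive EGR1 in other systems, and the promoter is shown because EGR1 had the largest fall of this list. The serum response element was found on either strand in 1.29% of all promoters and in 1 of 16 promoters of the list (6.25%), which was EGR1 (chr5:138465359-138465478, plus strand, matches in capitals).
EGR1: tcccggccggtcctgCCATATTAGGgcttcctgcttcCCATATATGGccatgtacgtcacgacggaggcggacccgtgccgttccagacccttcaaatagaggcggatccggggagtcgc
The sequence holds a pair of matches upstream of the start.

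Signalling outputs of cytokines moved less uniformly. Of 12 STAT5 target genes 4 fell and none rose, with ID1 at -0.89 ± 0.19, SOCS1, a feedback inhibitor, at -0.86 ± 0.19 and PIM1, a survival kinase, at -0.36 ± 0.11. The PIM1 call was lost without array 1 or 3 of treated day 2 or array 1 of treated day 4. Of 13 cytokine and chemokine genes 4 rose and 2 fell, beside 18.6% and 20.0% of all genes. The 4 rises were 2 without array 1 of treated day 2. TNF, the inflammatory cytokine, had levels of 7.42, 7.13 and 6.96 on day 2 and 5.69, 5.52 and 5.49 on day 4, with no overlap. It fell by 1.60 (SE 0.21, 3.03-fold, adjusted p = 9.07e-06) and rose by 0.86 in vehicle. CCL5, a chemokine, fell by 0.81, and TNFSF13B, the B cell survival factor BAFF, rose by 0.99 ± 0.07. Of 14 genes of NF-kappaB feedback 4 fell and 2 rose, beside 20.0% and 18.6% of all genes. The 2 rises were 1 when any 1 of the 6 arrays was left out. CD83, a surface protein of mature dendritic cells, was lower, at -0.98 ± 0.13, and TNFAIP2 was higher by 0.47 ± 0.11. INHBA, a subunit of activin, had levels of 10.14, 10.22 and 10.07 on day 2 and 8.88, 8.81 and 8.61 on day 4 and fell by 1.38 (SE 0.14, adjusted p = 2.85e-07).

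Stress and secretory pathway genes tended downward, while many rose in vehicle by day 4. Of 18 genes of the unfolded protein response 8 fell and none rose, with 1 higher at an unadjusted p under 0.05 (limma), and the treated change was lower than in vehicle for 13 with day 4 and 4 with day 6. MANF, a secreted stress protein, had levels of 11.20, 11.14 and 11.17 on day 2 and 10.49, 10.54 and 10.49 on day 4. It fell by 0.66 with no overlap (SE 0.05, adjusted p = 2.79e-08). SDF2L1, CRELD2 and PDIA4, which assist folding in the endoplasmic reticulum, fell by 0.93, 0.43 and 0.45. Of 31 genes of ATF4 and amino acid stress 9 fell and 1 rose, against 18 higher and 2 lower in vehicle, and over the alternatives run 8 to 14 fell and 1 to 4 rose. SLC7A1 and SLC7A5, importers of cationic and large neutral amino acids, fell by 0.55 and 0.51. Of 26 genes of glycolysis and hypoxia 12 fell and 2 rose, or 1 rose without array 1 or 3 of treated day 2 or array 1 or 2 of treated day 4. Of the 26, 17 were lower than the vehicle change, 12 of them with both vehicle days. LDHA, lactate dehydrogenase, fell by 0.31 (SE 0.06) from 14.70, 14.69 and 14.65 to 14.39, 14.39 and 14.34. SLC2A1, the glucose transporter GLUT1, fell by 0.41, and BNIP3 and BNIP3L, mitophagy receptors, went apart, with -0.71 ± 0.17 and 0.62 ± 0.10.

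Most fusion targets had no called change from day 2 to day 4. Of 16 tested 2 rose and 3 fell, near the shares over all genes, with a median change of 0.02. The list's median level was 11.06 to 11.13 in the treated day 2 arrays and 10.79 to 10.88 in the treated day 4 arrays. In vehicle it was 11.29 to 11.31 on day 2 and 11.40 to 11.51 on day 4. The 2 rises were 1 without array 3 of treated day 2 or array 1 or 3 of treated day 4. MEF2C, a transcription factor of fusion-driven progenitors, had levels of 11.13, 11.10 and 11.17 on day 2 and 10.66, 10.62 and 10.59 on day 4. All day 4 arrays were below day 2. It fell by 0.51 (SE 0.06, adjusted p = 1.66e-06). MEIS1, a homeobox partner of HOXA9, had levels of 11.13, 11.09 and 11.05 on day 2 and 11.01, 11.13 and 10.99 on day 4. These overlapped, and its change was -0.04 ± 0.08 (adjusted p = 0.717), while its treated day 6 mean was 10.32. PBX3, another HOXA9 partner, fell by 0.22 (adjusted p = 0.0146), a call lost without array 1 of day 4 and in a fit of the 6 arrays alone, with or without a replicate block. MYB, a progenitor factor, had a change of 0.02 ± 0.05. ADGRA3, an adhesion receptor in the list, rose by 0.71 ± 0.11. HOXA9 and HOXA10 were not analysed here.

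The complex around DOT1L itself was nearly flat, with 2 of 23 genes higher, 3 lower and a median of -0.04. The 3 falls were 1 without any 1 array of treated day 2, without array 1 or 2 of treated day 4 or with no filter, and the 2 rises were 0 with averaged probe sets. DOT1L (Entrez gene 84444) had levels of 8.74, 8.55 and 8.59 on day 2 and 8.23, 8.31 and 8.29 on day 4. The days did not overlap, but they were close. It fell by 0.35 (SE 0.13, adjusted p = 0.0422), and the call was lost when any 1 of the 6 arrays was left out (adjusted p = 0.056 to 0.145). MEN1, which tethers the fusion to chromatin, fell by 0.36 and by a like -0.42 in vehicle. KMT2A, the MLL gene, and AFF1, the AF4 gene, had changes of -0.04 ± 0.08 and 0.00 ± 0.05, and neither passed. The drug inhibits the enzyme and not its RNA, so these levels are no measure of its action.

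Genes of p53 output and of cell death did not move one way. Of 22 p53 targets 2 rose and 7 fell, beside 18.6% and 20.0% of all genes. TP53INP1 was higher by 0.98 ± 0.08 and FAS, a death receptor, was lower, at -1.17 ± 0.20. Over the alternatives run 5 to 11 of the p53 targets fell and 2 to 4 rose. Of 21 apoptosis regulators 7 rose and 4 fell. The rises included BMF and BIK, both activators of death, at 0.82 ± 0.11 and 0.49 ± 0.09. The 7 rises were 4 with averaged probe sets, and the 4 falls were 2 without array 1 of day 2 or array 1 or 2 of day 4.

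For interferon-stimulated genes the contrast with vehicle depended on the vehicle day used. Under treatment 8 of 27 rose and none fell, beside 18.6% and 20.0% of all genes, with a median change of 0.20. The list's median level was 5.56 to 5.78 in the treated day 2 arrays and 6.78 to 7.29 in the treated day 4 arrays, with no overlap. It was 6.85 to 7.08 in treated day 6. In vehicle 25 rose by day 4, with a median change of 2.48. By day 6, 0 were called in vehicle, with 6 at an unadjusted p under 0.05 (limma) and a median change of 0.51. The vehicle day 6 arrays were not alike, since the list's median level was 7.59 in array 1, 5.95 in array 2 and 5.43 in array 3, against 7.90 to 8.68 in vehicle day 4 and 4.83 to 5.93 in vehicle day 2. The treated count was 4 without array 3 of treated day 2 or day 4. The treated change was lower than in vehicle for 21 with day 4 and for 0 with day 6, with 1 at an unadjusted p under 0.05 (limma). XAF1, an interferon-induced death factor, had levels of 9.92, 10.03 and 9.96 on day 2 and 10.71, 10.79 and 10.67 on day 4 and rose by 0.75 ± 0.12, against 1.55 in vehicle to day 4 and 0.49 to day 6. IFI6, another induced gene, rose by 1.28 ± 0.34, and RIGI, a sensor of viral RNA, by 0.69 ± 0.13. CXCL10, IFI44 and IFIT1 lay within 0.5 of the floor in all 6 treated arrays.

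Markers of other cell types were mostly low. Of 13 B-lymphoid markers with a probe set 8 were under log2 4 on both days, and so were 13 of 14 T and NK cell markers, 9 of 11 platelet, 9 of 13 mast cell, 5 of 8 erythroid and 8 of 11 epithelial and fibroblast markers. The summed linear intensity of the B-lymphoid list was 887 to 946 on day 2 and 1182 to 1316 on day 4, with BLNK, a B cell adaptor, higher by 1.87 ± 0.19 and PAX5, the B lineage factor, lower, at -1.05 ± 0.26. Their part in the rise of class II genes was not tested. The platelet sum was 258 to 294 and then 492 to 517, with F13A1 not on that list, and the mast cell sum, which holds KIT, was 859 to 942 and then 1443 to 1541. The T and NK cell sum was 1441 to 1522 and then 2015 to 2198, with NKG7 its only member at log2 4 or above. The erythroid sum, which holds TFRC, was 16465 to 16752 and then 12837 to 13510, and the epithelial and fibroblast sum was 659 to 765 and then 467 to 548. Of 13 housekeeping genes 3 fell and none rose, TFRC, the transferrin receptor, by 0.33 and PGK1 and SDHA by 0.27 and 0.25, with a list median of -0.08. The SDHA call was lost without array 1 or 3 of day 2 or array 1 or 2 of day 4, with no filter, after renewed quantile normalization and with a replicate block in the 6 arrays alone.

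**Figure D3:**
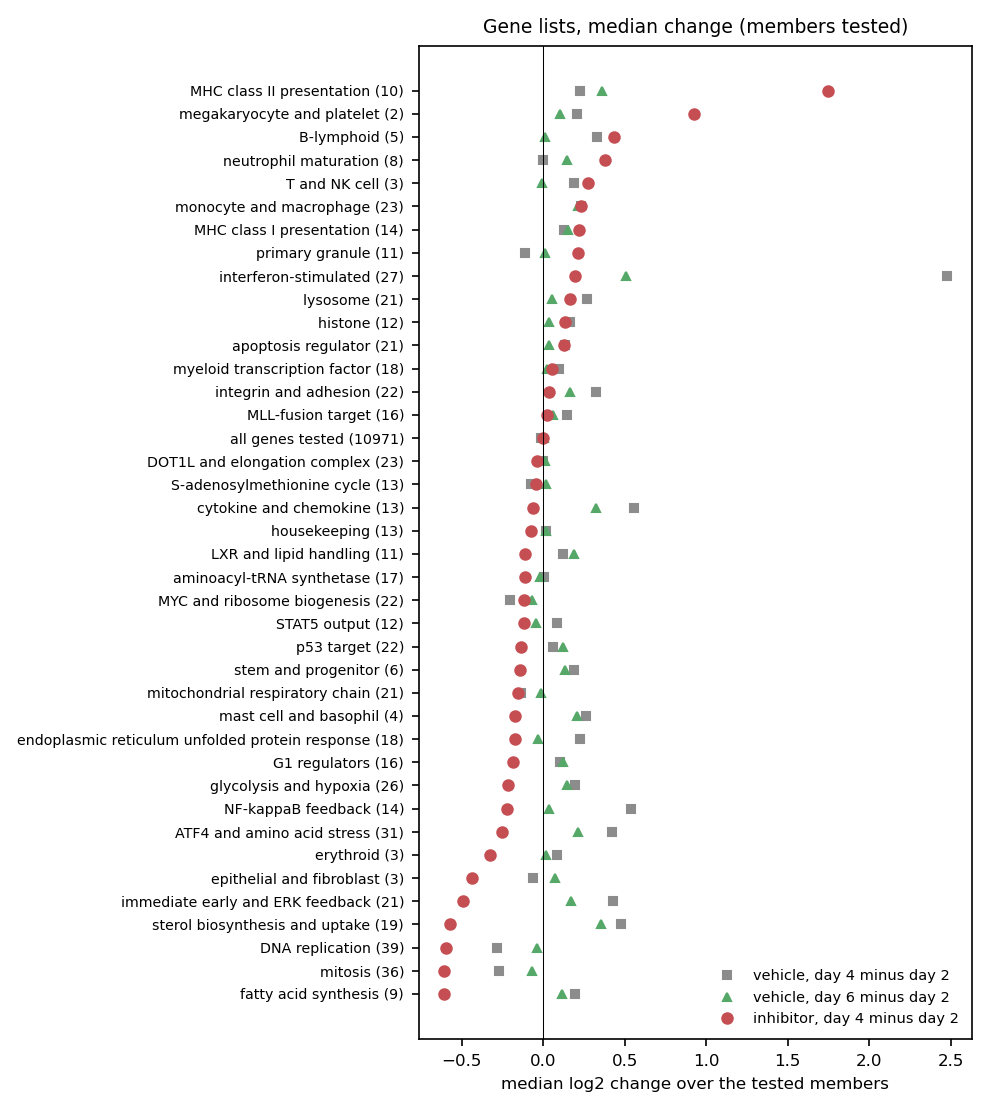
Median log2 change from day 2 to day 4 of each gene list (horizontal axis) in treated cultures (red circles), vehicle cultures (grey squares) and vehicle cultures from day 2 to day 6 (green triangles), with the number of tested members in brackets. Class II presentation lies furthest right of the treated medians at 1.75, DNA replication and mitosis lie near -0.6, and interferon-stimulated genes stand out at 2.48 in vehicle cultures.

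The day 6 arrays show where the day 4 levels went. The treated day 6 arrays carried the widest 3′ to 5′ range of the MV4-11 groups used here, and its part in these values was not tested. Of the 220 genes that rose at least 2-fold, 208 had a treated day 2 mean above that of day 2 vehicle. On day 6, 170 had a higher treated mean than on day 4. Over all 2044 rises these counts were 1751 and 1452. Of the 54 falls of at least 2-fold, 44 had a treated day 2 mean below vehicle and 39 were lower again on day 6. Over all 2197 falls these counts were 1609 and 1353. Any difference of means was counted, however small and also near the floor, without a test. No share over all tested genes is given beside these counts, so they are not read as a continued change. HLA-DPA1 had a day 2 vehicle mean of 7.07 and treated means of 9.32, 12.31 and 13.31 on days 2, 4 and 6. For S100A8 the treated means were 8.12, 9.41 and 11.01. KIT, in contrast, had treated means of 10.32 on day 4 and 10.28 on day 6, and ITGAM of 7.97 and 7.53. Among falling genes, MKI67 went from a vehicle mean of 11.46 through 11.24 and 10.59 to 9.87, and DHCR7 from 9.22 through 8.67 and 6.96 to 6.00. CD38 had a treated day 2 mean of 7.36, close to the vehicle mean of 7.41, and means of 6.17 and 4.88 on days 4 and 6. EGR1 had means of 5.89 and 5.24 on the later days. These are values side by side, because the steps share arrays.

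**Figure D4:**
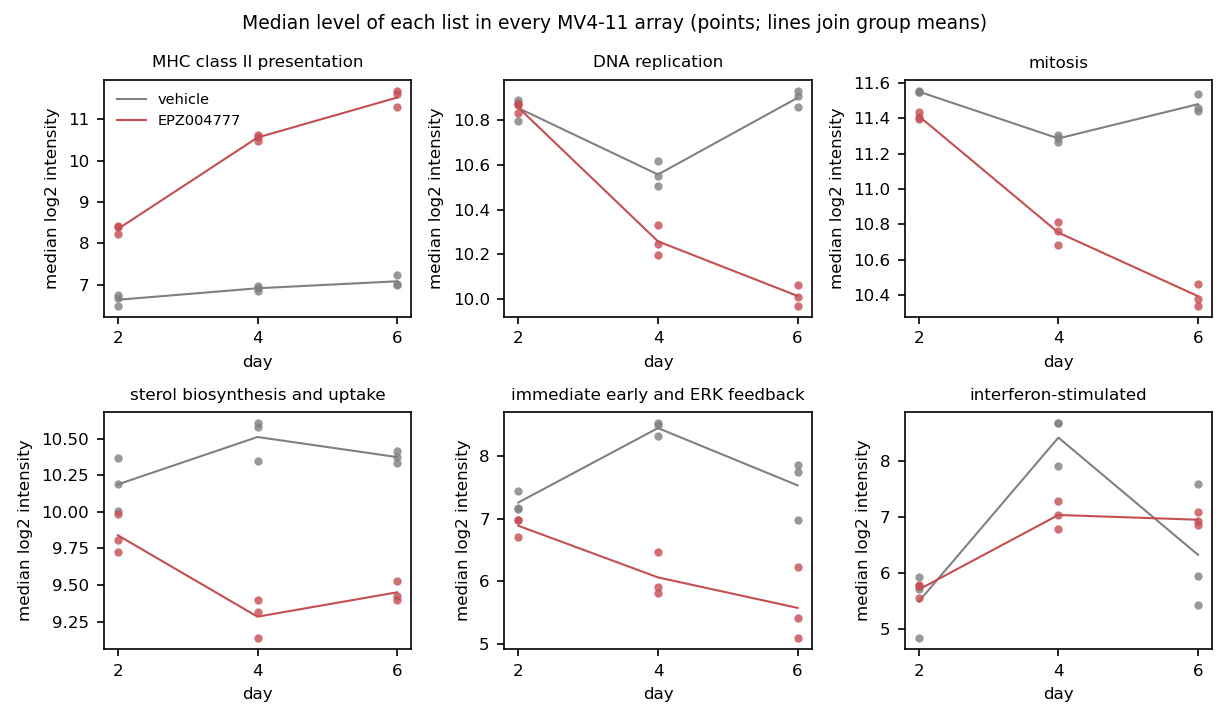
Median log2 intensity of 6 gene lists (vertical axes, each with its own scale) in each MV4-11 array by day, with points for arrays and lines through the group means of treated (red) and vehicle (grey) cultures. The class II list climbs from 8.24 to 8.42 on day 2 to 10.48 to 10.62 on day 4 and 11.29 to 11.69 on day 6 under treatment, while vehicle arrays stay between 6.48 and 7.23.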

How the data were processed

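Affymetrix arrays measured RNA of 24 samples, 1 array each. The authors deposited an intensity for each probe set on a linear scale, from 4.55 to 71593, made with GCRMA per the submitters' processing notes (no version stated). Its log2 was taken with a pseudocount of 0. Of 54675 probe sets 62 controls were dropped, 41097 had 1 gene symbol, 1801 several and 11777 none, and 41037 matched RefSeq (GRCh38.p14), for 19775 genes. Genes at log2 4 or more in at least 3 arrays were kept, each by its probe set of highest mean, which left 10971. limma 3.58.1 (R 4.3.3; lmFit, eBayes, two-sided) fitted the mean of every group to the 24 arrays together, with Benjamini-Hochberg adjustment over all genes and calls under 0.05. An exact test of 3 against 3 cannot give a p under 0.1, and the number of arrays limits the precision. In simulated data of 10679 genes for this comparison, 67 of 97 changes of 0.5 log2 units and 92 of 97 of 1 unit were recovered, with 5 false calls. The simulated noise was independent between genes and arrays, and far fewer genes changed than were called here. These rates therefore need not hold for the real arrays.

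Named genes are the 10 largest called rises and falls with no overlap of arrays, those with both means at least 6, at most 4 per list by p, a panel, the line's markers and the 5 most positive and negative differences. HLA-DRB1, HLA-DMB, HLA-DOB, GINS4 and BUB3 were named after their values were seen. Members, lists and rules were chosen with earlier results of these data known. Alternatives changed the filter, pseudocount, probe set rule, normalization, covariates, block and arrays used. Promoters were searched in Python 3.11.15.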

Additional observations from a re-analysis of the deposited data

Results flagged for a closer look

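For 36 of 41 named genes the change from day 2 to day 4 under treatment differed from the change in vehicle (limma, adjusted p under 0.05). The test was of the difference itself. The 41 were named for the size of their treated change or of this same difference. The 5 most positive and 5 most negative differences were taken from genes already called in this test, so their calls were fixed in advance. Over all genes 15.0% were called, and the count of 36 reflects how the genes were chosen. Each value is the treated change minus the vehicle change, on the log2 scale. Higher under treatment were TSPOAP1 at 4.08, GASK1B at 3.91, ZNF366 at 3.72, HLA-DPB1 at 3.31, SLC40A1 at 3.23, ATP6V1C2 at 3.19, GAPT at 3.07, GPAT3 at 2.87, CRISPLD2 at 2.83, F13A1 at 2.51, HLA-DPA1 at 2.27, HLA-DQB1 at 2.22, HLA-DRA at 2.14, ROBO1 at 2.12, IGF1 at 1.99, CSGALNACT1 at 1.71 and H2BC5 at 1.49. Lower under treatment were AKR1C2, an aldo-keto reductase, at -4.26, EGR1 at -4.12, IL4I1, an amino acid oxidase, at -3.74, MIR210HG, the host transcript of a hypoxia-induced microRNA, at -3.65, EGR3 at -3.15, RGCC at -3.05, DHCR7 at -2.64, NCF1 at -2.53, TNF at -2.46, RGS16, a brake on G protein signalling, at -1.83, ANKRD22 at -1.64, INHBA at -1.64, CD38 at -1.44 and HPDL at -0.92. Of the 36, 31 were called the same way with vehicle day 6 in place of day 4. The other 5 were CXCL10 at -6.05, IFIT1 at -5.61, IFIT3 at -4.63, KCNE1 at -4.63 and IFI44 at -4.42, in which the day 4 vehicle arrays rose while the treated arrays lay at or near the lowest value. For these 5 the difference was called only with vehicle day 4. With vehicle day 6 it was -1.83 to -0.66 and not called (limma adjusted p = 0.0879 to 0.69). The cause of the departure of the day 4 vehicle arrays was not tested.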

How the results depend on the processing

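The treated count of 4241 was 3554 to 3743 when 1 array was left out, 7721 over every probe set (more features tested) and 274 with a 2-fold minimum added. The share of rises among the calls ran from 44.5% to 51.5%. The replicate numbers did not pair the samples (same-number correlations of -0.19, -0.11 and 0.01), and a replicate block gave 4118 calls, or 3993 with the 6 arrays alone. The vehicle count of 2958 was 1871 to 2676 with 1 array left out, the lowest without array 3 of day 4, 1288 with a replicate block in its own 6 arrays and 4515 over every probe set. For vehicle day 6 against day 2, 123 became 28 to 366 with 1 array left out, 4 in its own 6 arrays (2147 at an unadjusted p under 0.05), 0 there with a replicate block (1745 at an unadjusted p under 0.05, limma), 214 with the 3′ to 5′ measure as a covariate and 199 over every probe set. The difference count of 1644 was 1295 to 1506 with 1 array left out and 2337 with vehicle day 6. The median of the apoptosis list turned to -0.081 with averaged probe sets and that of the histone list to -0.16 with the filter at 6. FARSB turned to 0.15 with averaged probe sets (limma adjusted p = 0.325). Causes were not tested. Of 164 called named genes, 140 kept the call under every alternative run and 24 lost it under at least 1. List medians moved in 35 cases, in 22 lists. Signal near the lowest value limits what low genes can show.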

Other observations

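Some of the largest falls belong to none of the gene groups above. HPDL, a mitochondrial dioxygenase-like enzyme, had levels of 8.18, 8.17 and 7.96 on day 2 and 6.49, 6.50 and 6.54 on day 4. The days were well apart, and it fell by 1.59 (SE 0.10, 3.01-fold, limma adjusted p = 1.27e-09), against -0.67 in vehicle to day 4. AKR1C2, an aldo-keto reductase of steroid metabolism, had levels of 5.60, 5.66 and 5.84 on day 2 and 2.72, 2.28 and 3.54 on day 4, so that its day 4 arrays were close to the floor. It fell by 2.85 and rose by 1.41 in vehicle. IL4I1, a secreted amino acid oxidase, had levels of 6.07, 6.71 and 6.20 on day 2 and 4.91, 4.20 and 4.64 on day 4, and fell by 1.74 where vehicle rose by 1.99. ESCO2, which establishes cohesion between sister chromatids, fell by 1.23 and had a treated day 6 mean of 5.71. MS4A4A, a membrane protein of macrophages, had levels of 9.34, 9.35 and 9.27 on day 2 and 8.21, 8.18 and 8.13 on day 4, with no overlap, and fell by 1.15 (SE 0.30) and a vehicle change of -0.24. MT1M, a metallothionein, fell by 1.23 under treatment, its vehicle changes to days 4 and 6 were -0.94 and -1.17, and its difference from vehicle was not called. For MS4A4A, ESCO2 and CSPG5 the difference from the vehicle change was not called with day 4 (limma adjusted p = 0.174, 0.0795 and 0.0719) and was called with day 6 (adjusted p = 0.032, 0.000393 and 0.00171). RGCC fell by 1.76, CSPG5, a proteoglycan, by 1.26, and RGS16 by 1.22.

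A pair of platelet-associated genes also rose. NFE2, a factor of megakaryocytes and other myeloid cells, had levels of 7.73, 7.53 and 7.51 on day 2 and 8.54, 8.70 and 8.64 on day 4 and rose by 1.04 ± 0.10 (limma adjusted p = 3.01e-07), while it fell in vehicle (-0.37). ITGA2B, the platelet integrin chain, rose by 0.81 ± 0.17 and by a like 0.78 in vehicle.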
